A study of Bos taurus with 4 samples.

Results

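Macrophage nuclei of cattle fat were taken as nuclei with at least 200 detected genes, at least 1 UMI (a counted RNA molecule) of at least 2 of the 9 genes MRC1, F13A1, CSF1R, MSR1, CD14, C1QA, C1QB, C1QC and CD86, and no UMI of PECAM1, PDGFRA or MYH11, which mark endothelial cells, fibroblast-like progenitors and smooth muscle. This rule found 73 of 8849 nuclei. The tissue came from 2 beef steers of a commercial feedlot that received no treatment and whose diet, age and breed are unknown. Each animal gave 1 library of subcutaneous fat from the back (subcutaneous 1 and 2) and 1 library of the fat inside muscle (intramuscular 1 and 2), so the number of a library is its animal. Nuclei were released from fresh tissue with a Dounce homogeniser, made into droplet-based libraries that read the 3′ end of RNA, and sequenced; the comparison the design implies is between the depots.

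Macrophages of fat tissue clear dying cells, take up lipid and lipoprotein, handle iron and present antigen to T cells. They depend on the growth factor CSF1 and its receptor CSF1R, and those that settle in tissue carry scavenger receptors such as MRC1, STAB1, CD163 and LYVE1 and secrete the C1q chains that start the classical complement pathway. In fat that expands or remodels, some take on lysosomal and lipid-handling genes such as SPP1, GPNMB, LIPA and TREM2.

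Nuclei with at least 200 detected genes, called kept nuclei here, numbered 881 and 6128 in subcutaneous 1 and 2 and 1777 and 63 in intramuscular 1 and 2, with 105481 to 4009437 UMIs per library. The libraries stood apart in what they held. Of all UMIs, contractile genes of skeletal muscle made up 6.1% in the library labelled subcutaneous 1, 25.0% in subcutaneous 2, and 0.188% and 0.0711% in intramuscular 1 and 2, where TPM1, a tropomyosin that many cells use, made up 95.8% and 78.7% of that sum. Adipocyte genes took 0.849% and 0.0564% of UMIs in the subcutaneous and 2.63% and 1.96% in the intramuscular libraries, so the library labelled subcutaneous 2 was poor in the defining genes of its tissue. Intramuscular 2 also had few mitochondrially encoded UMIs, 0.0133% of its total. Whether the depot labels were exchanged was not tested; an exchange would turn every depot direction given here. Libraries shared 5 barcodes in all, and none of these was that of a macrophage nucleus.

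Macrophage nuclei were a small minority in each library. They numbered 30 of 881 nuclei in subcutaneous 1, or 3.41% (exact Clopper-Pearson 95% interval 2.31 to 4.83). In subcutaneous 2 there were 9 of 6128, or 0.147% (0.0672 to 0.279), and in intramuscular 1 there were 34 of 1777, or 1.91% (1.33 to 2.66). Intramuscular 2 had 0 of 63, for which the same interval allows a share of up to 5.69%. These intervals and limits cover counting error only.

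The shares of the depots overlapped. Subcutaneous libraries averaged 1.78% ± 2.3 (SD, n = 2), and intramuscular ones averaged 0.957% ± 1.35 (SD, n = 2). Intramuscular minus subcutaneous came to -0.819 percentage points, with an exact two-sided permutation p of 0.667; the 6 arrangements of the libraries allow no p under 0.33. Within animals the difference was -1.49 points in animal 1 and -0.147 in animal 2, but the sign of the mean turned to 0.81 without subcutaneous 1 and to 0.137 without intramuscular 2. The rule needs UMIs of 2 genes, so depth bears on it. Macrophage nuclei had median UMI counts of 860, 1199 and 863.5 in subcutaneous 1, subcutaneous 2 and intramuscular 1, beside 846, 518 and 1101 in the other nuclei. With every nucleus thinned to 400 UMIs, which left out 1345 shallower nuclei of subcutaneous 2 and 8 of intramuscular 2, the rule found 25 of 881 (2.84%), 2 of 4783 (0.0418%), 17 of 1777 (0.957%) and 0 of 55.

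**Figure D1:**
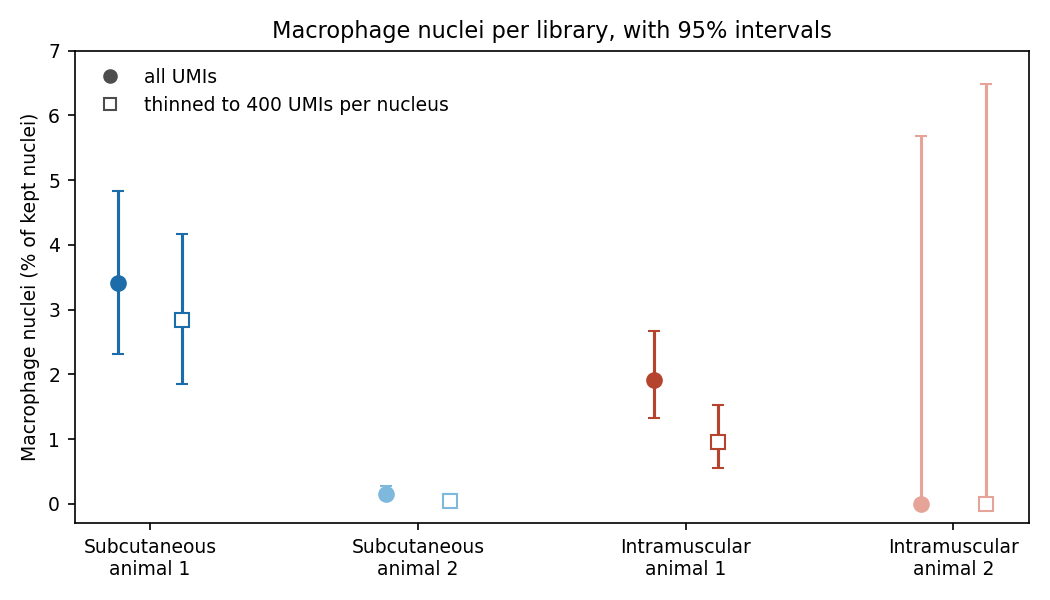
Share of kept nuclei that are macrophage nuclei in each of the 4 libraries, in percent, with exact 95% intervals; filled circles use all UMIs and open squares use nuclei thinned to 400 UMIs. Subcutaneous 1 was highest at 3.41%, intramuscular 1 followed at 1.91%, subcutaneous 2 was at 0.147%, and the 63 nuclei of intramuscular 2 gave none.

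Values over macrophage nuclei are given below in the order subcutaneous 1, subcutaneous 2 and intramuscular 1, the 3 libraries that held any. They rest on 36728, 12974 and 53572 UMIs, so that 1 count of a gene weighs most in subcutaneous 2. A level is given in CPM, the UMIs of a gene per 1000000 UMIs of the macrophage nuclei of that library, and a gene at 0 UMIs may be at up to 81.7, 231 and 56.0 CPM. Since nuclei were chosen on these libraries, their levels beside those of the other kept nuclei are a description without a test.

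The genes of the rule set the membership and are given as such. MRC1, the mannose receptor, had 32, 5 and 33 UMIs in 16, 4 and 20 nuclei. F13A1, a coagulation factor subunit made by resident macrophages, had 86, 10 and 41 UMIs in 23, 6 and 13 nuclei, and was the marker seen in the most members, 42 of 73, followed by MRC1 in 40. CSF1R, the receptor for CSF1 and IL34, had 18, 6 and 18 UMIs in 13, 5 and 13 nuclei. These 3 genes were present in each of the 3 libraries, at 336 to 490 CPM for CSF1R. MSR1, a scavenger receptor for modified lipoproteins, had 29, 10 and 17 UMIs in 13, 6 and 13 nuclei. CD14, the co-receptor for bacterial lipopolysaccharide, had 8, 6 and 16 UMIs in 3, 3 and 11 nuclei.

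The C1q chains were unevenly spread. C1QA had 84, 5 and 31 UMIs in 16, 3 and 6 nuclei, and 22 of the 31 intramuscular UMIs came from 1 nucleus. C1QB had 39, 1 and 11 UMIs and C1QC had 61, 0 and 23. At least 1 of the 3 chains was seen in 38 of the 73 nuclei (20, 3 and 15), and all 3 in 9 (6, 0 and 3). CD86, the co-stimulatory ligand for CD28 on T cells, had 0, 0 and 14 UMIs, so that its 9 nuclei were all intramuscular.

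Many members stood at the threshold. Exactly 2 markers were found in 34 nuclei, 3 in 17, 4 in 9 and 5 or more in the rest, up to 9 in 1 nucleus of intramuscular 1. By library, 10 of 30, 3 of 9 and 21 of 34 nuclei had only 2. The pair MRC1 and F13A1 was seen together most often, in 28 nuclei, followed by MRC1 with MSR1 and F13A1 with C1QA, in 20 each. The exclusion took out 46 of 119 nuclei with 2 or more markers, 26 of them with PECAM1, 18 with PDGFRA and 14 with MYH11. The nuclei taken out were deep, with median UMI counts of 2532, 1780 and 2739.

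The label was checked with macrophage genes that the rule did not use, among them CD163, STAB1, CD68, CYBB, SLC11A1, VSIG4 and LYVE1. In nuclei with none of the 9 rule markers these took 0.0226%, 0.00545% and 0.0233% of UMIs. In nuclei with 1 marker, just outside the rule, the sum was 0.0548%, 0.0329% and 0.0279%, and in those with exactly 2, just inside it, the sum was 0.328%, 0.308% and 0.112%. The step at the threshold was thus seen in each library, and it was smallest in intramuscular 1. Nuclei with 4 or more markers reached 0.525%, 1.0% and 0.327%. Those with 2 or more markers that an excluded gene took out had 0.103%, 0.0818% and 0.127%. In intramuscular 2 the 3 nuclei with 1 marker had 0.213%, beside 0.0475% in the 56 nuclei without one, and none of the 63 reached 2 markers.

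**Figure D2:**
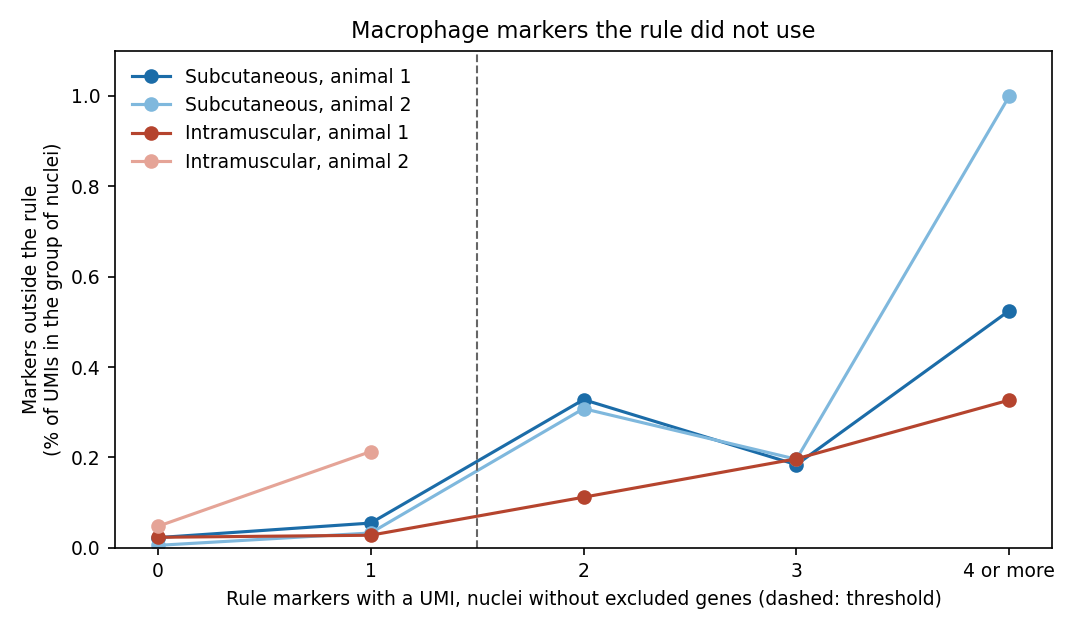
Percent of UMIs from macrophage markers outside the rule (vertical axis) in nuclei grouped by how many of the 9 rule markers they carried (horizontal axis), 1 line per library, for nuclei without an excluded gene. In the 3 libraries with members, the points right of the dashed threshold, from 0.112% upward, lie above those left of it, which reach 0.0548%.

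Over all members these outside markers took 0.357%, 0.424% and 0.164% of UMIs, beside 0.0343%, 0.00716% and 0.0245% in the other nuclei. Genes of leukocyte signalling, such as the phosphatase PTPRC, the kinases LYN and BTK and the actin bundler LCP1, took 0.259%, 0.208% and 0.0747%, beside 0.0402%, 0.00776% and 0.0224%. All 22 of them had a UMI in some member. At least 1 gene of either list was seen in 27 of 30, 8 of 9 and 30 of 34 members, and in 32.8%, 5.4% and 37.2% of the nuclei with no rule marker, whose median UMI counts were 792.5, 507 and 1071. Of the 19 outside markers in the files, 4 had no UMI in any member: MS4A7, CD163L1, SIGLEC1 and LY86. The summed level of outside markers in members was thus above that of the other nuclei in each of the 3 libraries, and lowest in intramuscular 1.

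**Figure D3:**
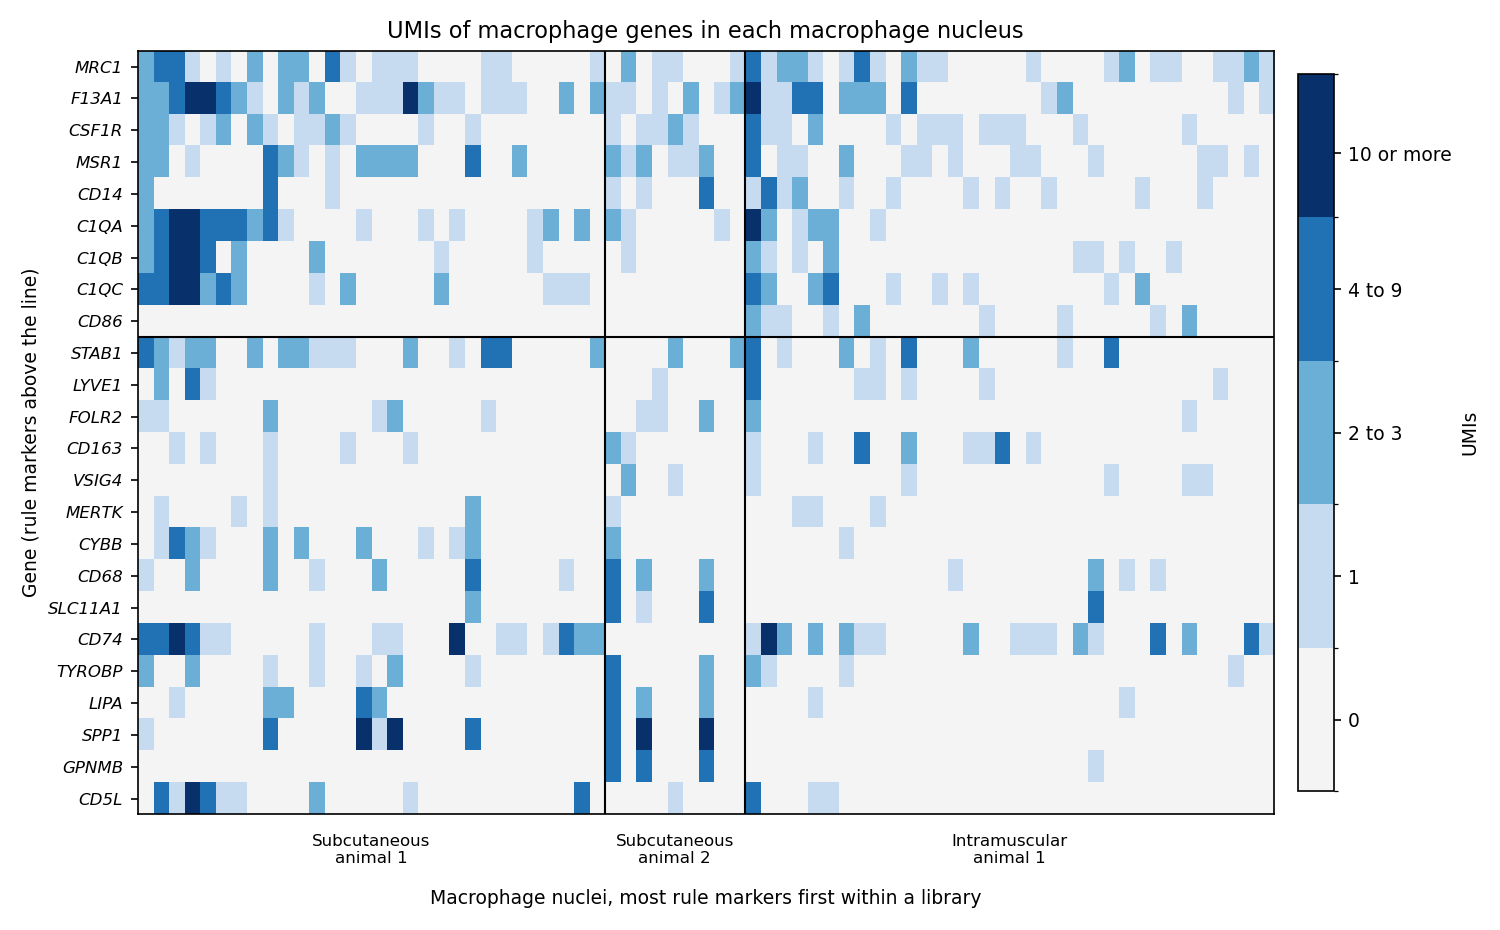
UMIs of 9 rule markers (above the line) and 15 other macrophage genes (below it) in each of the 73 macrophage nuclei, 1 column per nucleus, ordered within a library from most to fewest rule markers, with darker blue for more UMIs. CD86 appears only among the 34 intramuscular nuclei and SPP1 only in 9 of the 39 subcutaneous ones.

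Among 1056 genes with at least 20 UMIs over the members, 66 (6.25%) were 2-fold or more above the other nuclei in both libraries with at least 10 members, subcutaneous 1 and intramuscular 1, and 18 were 2-fold or more below. The median ratio over all 1056 was 1.13 and 1.04. Of the 66 genes, 58 were seen in at least 3 members of each of these libraries, and 48 kept the ratio without the nucleus that held most UMIs of the gene in each. In subcutaneous 2, whose ratios took no part in this choice, 53 of the 66 were also 2-fold or more above, as were 400 (37.9%) of all 1056 genes. Its UMIs did count towards the minimum of 20, and SLC11A1 (2, 14 and 8 UMIs) passed only with them. The 53 are therefore not an independent check.

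The leading genes included several enzymes. AOC1, the diamine oxidase that breaks down histamine, had 18, 0 and 11 UMIs, at 490 and 205 CPM in the first and last library. This was 108 and 137 times the level in the other nuclei, but 7 of the 11 intramuscular UMIs were in 1 nucleus. RNASE6, an antimicrobial ribonuclease, had 20, 2 and 8 UMIs (50.2, 103 and 36.2 times), but all 8 intramuscular UMIs were in 1 nucleus. BRB, a ribonuclease of the same family, had 64, 13 and 30 UMIs (42.8, 125 and 35.5 times), 20 of the 30 in 1 nucleus. Counts of these related ribonucleases may be split between the genes. GDA, the guanine deaminase, had 20, 4 and 24 UMIs in 10, 3 and 13 nuclei (20.1, 61.6 and 44.2 times) with no more than 5 UMIs in any nucleus. PEPD, a peptidase for dipeptides that end in proline, had 26, 5 and 17 UMIs (12.8, 20.3 and 7.49 times).

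Receptors and signalling genes of blood cells were a further group. C5AR1, the receptor for the complement fragment C5a, had 7, 0 and 13 UMIs (70.3 and 35.9 times where seen). CR2, a receptor for fragments of C3 that is best known from B cells, had 25, 1 and 21 UMIs in 12, 1 and 9 nuclei (32.7, 77.0 and 29.0 times). The B cell genes CD79A, CD79B, MS4A1 and PAX5 had no UMI in any member. Of the same list, BANK1 had 1, 0 and 2 UMIs (6.03 and 12.4 times in animal 1) and EBF1 had 1, 0 and 2 (0.443 and 0.582 times). TYROBP, the adaptor through which TREM2 and related receptors signal, had 11, 7 and 5 UMIs (33.1, 431 and 82.9 times). RGS1, a brake on G protein signalling, had 21, 38 and 12 UMIs, with 29 of the 38 and all 12 of the last in 1 nucleus each. FERMT3, which activates integrins in blood cells and overlaps another gene in a newer annotation, had 11, 10 and 2 UMIs (17.4, 616 and 8.29 times).

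The scavenger and resident genes CD163 and LYVE1 and the soluble scavenger protein CD5L were also among the 20 leading genes. CD163, the receptor for haemoglobin bound to haptoglobin, had 5, 3 and 15 UMIs in 5, 2 and 8 nuclei (21.5, 154 and 9.1 times). LYVE1, a hyaluronan receptor of vessel-associated macrophages and of lymphatic endothelium, had 10, 1 and 12 UMIs (18.8, 61.6 and 33.2 times). The lymphatic genes MMRN1, RELN, CCL21 and FLT4 were at 0 in the members, and PROX1 and PDPN had 1 UMI each, in intramuscular 1. CD5L had 30, 1 and 8 UMIs (16.4, 44.0 and 18.1 times). In intramuscular 1, 1 nucleus held 6 of the 8 CD5L UMIs and 7 of the 12 LYVE1 UMIs. The same nucleus held all 8 UMIs of RNASE6, 20 of the 30 of BRB and 22 of the 31 of C1QA. The levels of these genes in that library are therefore not independent of each other. SLC11A1, the metal transporter of phagosomes, had 2, 14 and 8 UMIs (12.1 and 66.3 times in the first and last library, and at least 1440 times in subcutaneous 2, where other nuclei had none). Its UMIs came from 1, 3 and 1 nuclei, and the 1 nucleus of intramuscular 1 also held all 12 RGS1 UMIs of that library.

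Of the rest of the leading genes, CD83, a surface protein of activated antigen-presenting cells, had 11, 0 and 19 UMIs (17.4 and 49.8 times). CD55, which protects cells from complement, had 15, 9 and 10 UMIs (17.4, 50.4 and 10.2 times). DUSP2, a phosphatase of MAP kinases, had 8, 4 and 14 UMIs (11, 176 and 14.8 times), and HACD4, an enzyme of fatty acid elongation, had 11, 2 and 9 (11, 30.8 and 16.6 times). TMEM156 and SHTN1 had 9, 2 and 10 and 7, 4 and 12 UMIs. In subcutaneous 2, whose UMIs counted towards the minimum of 20, 17 of the 20 leading genes were 2-fold or more above the other nuclei. The other 3, AOC1, C5AR1 and CD83, had no UMI there.

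**Figure D4:**
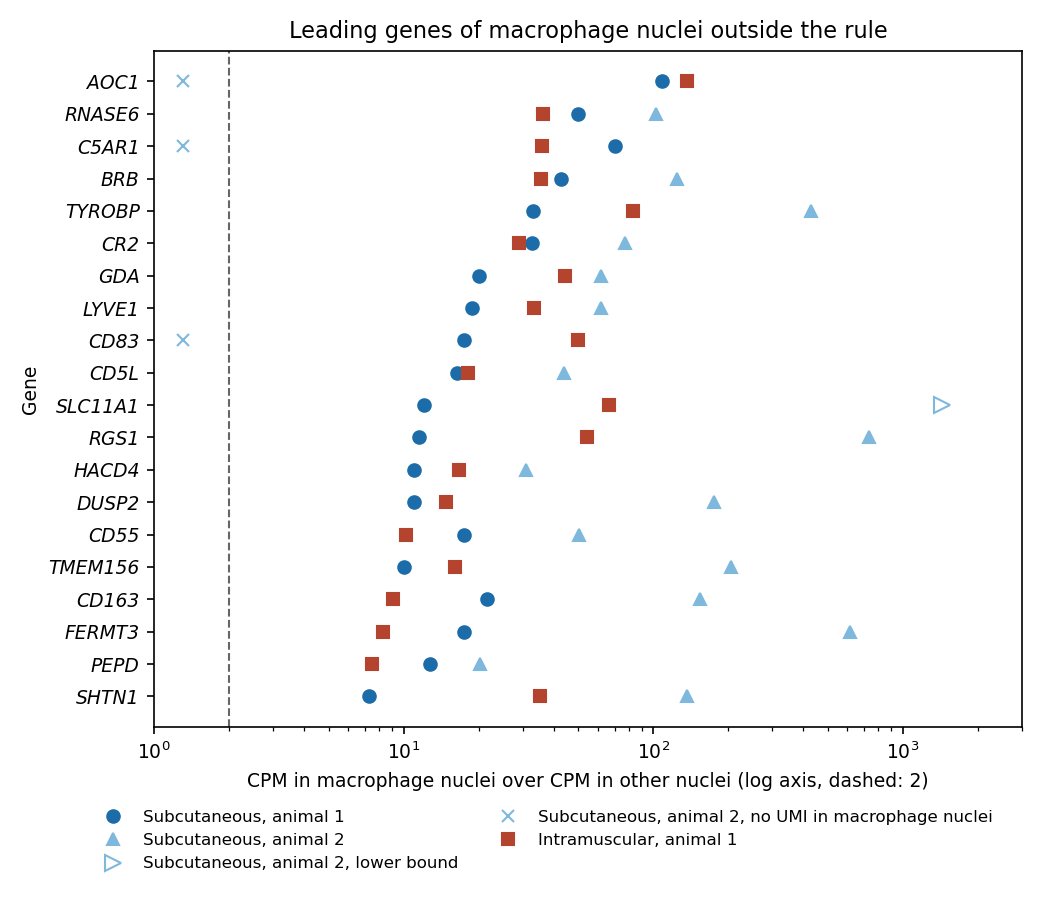
Ratio of CPM in macrophage nuclei to CPM in the other nuclei of the same library (log axis) for the 20 leading genes outside the rule, 1 symbol per library. Ratios in subcutaneous 1 and intramuscular 1, by which the genes were ranked, run from 7.27 upward. Crosses mark the 3 genes with no UMI in the 9 macrophage nuclei of subcutaneous 2.

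Other genes among the 66 are described here one by one, chosen with their values in view. SRGN, the core protein of the proteoglycan in secretory granules, had 26, 10 and 36 UMIs in 9, 3 and 12 nuclei (6.69, 36.7 and 6.01 times). ADGRE5, an adhesion receptor of leukocytes that binds CD55, had 9, 3 and 15 UMIs (6.16, 15.4 and 6.85 times). UNC93B1, which brings nucleic acid sensing toll-like receptors to endosomes, had 14, 2 and 4 UMIs (16.9, 23.7 and 5.69 times). SRGN and ADGRE5 were thus near the same ratio in the members of both depots of animal 1. CYBA, the partner of CYBB in the NADPH oxidase, had 11, 6 and 4 UMIs (6.63, 48.6 and 3.11 times), and PTPN6, a phosphatase that dampens immune receptor signals, had 11, 0 and 9 (4.19 and 3.27 times). LGMN, the lysosomal protease legumain, had 16, 3 and 4 UMIs (16.6, 7.51 and 2.52 times). TGFBI, a matrix protein induced by TGF-β, had 20, 1 and 14 UMIs (6.48, 4.89 and 3.73 times).

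The 66 genes also held the following. CPT1A, which brings long-chain fatty acids into mitochondria, had 8, 0 and 14 UMIs (2.25 and 2.9 times), and SGMS1, a sphingomyelin synthase, had 15, 8 and 13 (3.59, 8.53 and 2.28 times). HIF1A, the oxygen-sensitive factor, had 12, 1 and 26 UMIs in 9, 1 and 17 nuclei (2.43, 2.48 and 2.82 times). CD44, a hyaluronan receptor, had 5, 14 and 11 UMIs, with ratios of 2.01 and 2.13 in animal 1, just inside the threshold. TENT5A, a poly(A) polymerase, had 9, 3 and 31 UMIs (5.65, 37.0 and 7.99 times), and FRMD4B had 8, 0 and 14 (5.24 and 33.2 times). These genes were therefore above the other nuclei in both depots of animal 1, and CPT1A and FRMD4B had no UMI in subcutaneous 2. Of the 66, 3 genes have no name in the files, among them ENSBTAG00000010155 with 44, 1 and 11 UMIs and ENSBTAG00000048980 with 35, 5 and 13 (23.4, 53.1 and 29.4 times).

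Gene lists of macrophage functions were read by how many members of a list with at least 20 UMIs were among the 66. The 20 UMIs were counted in the macrophage nuclei, so a gene scarce in other nuclei could pass only by being high in members, and these counts are given as a description. The outside markers with 20 UMIs, 6 of the 19 in the files, were STAB1, CD68, CYBB, SLC11A1, CD163 and LYVE1, and each was among the 66. STAB1, a scavenger receptor for acetylated lipoprotein and apoptotic cells, had 43, 4 and 21 UMIs in 16, 2 and 8 nuclei, at 1171 CPM (exact Poisson 95% interval 847 to 1577), 308 CPM (84.0 to 789) and 392 CPM (243 to 599), or 6.05, 7.95 and 6.15 times the other nuclei, though it overlaps NT5DC2 in a newer annotation. CD68, a lysosomal glycoprotein, had 14, 12 and 6 UMIs (30.1, 264 and 6.94 times). CYBB, the catalytic subunit of the phagocyte NADPH oxidase, had 23, 2 and 1 UMIs, so nearly all of it was in subcutaneous 1.

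Of 6 scavenger and clearance receptors with 20 UMIs, 3 were among the 66. These were STAB1, CD163 and LYVE1, while CD36 and LRP1, receptors for fatty acids and lipoproteins, and AXL, a receptor for dying cells, were not. CD36 had 59, 15 and 81 UMIs, at 1.25, 8.01 and 0.783 times the level of the other nuclei, and adipocytes and endothelial cells are known to use it. AXL had 8, 0 and 33 UMIs (0.909 and 1.26 times) and LRP1 had 14, 4 and 11 (1.89, 14.5 and 0.926 times). MERTK, the receptor tyrosine kinase for dying cells, had 6, 1 and 3 UMIs. MARCO and CLEC10A had none. In the list of the tissue-resident programme, 5 of 8 genes were among the 66, including DAB2, an endocytic adaptor with 22, 4 and 19 UMIs (6.83, 24.2 and 3.36 times). The selenium carrier SELENOP, the co-receptor NRP1 and the iron exporter SLC40A1 were not. NRP1 had 20, 4 and 20 UMIs at 1.39, 5.13 and 1.08 times, and SELENOP, which overlaps CCDC152 in a newer annotation, had 18, 3 and 19 at 1.02, 1.2 and 1.38 times.

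In complement, 3 of 4 genes were among the 66: CFD, CD55 and C5AR1. CFD, the protease factor D, had 23, 2 and 19 UMIs in 7, 2 and 8 nuclei (16.5, 22.0 and 5.28 times), with an overlapping gene, MED16, in a newer annotation. CFD also stood in the list of progenitor and fibroblast genes and was the only member of that list among the 66. ITGB2, the common β chain of leukocyte integrins, had 15, 11 and 0 UMIs.

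The most abundant class II genes were detected in the members of animal 1 only. CD74, the invariant chain, had 63, 0 and 42 UMIs in 16, 0 and 17 nuclei, at 1715 and 784 CPM and 2.88 and 2.7 times the other nuclei. BOLA-DRA, the class II α chain, had 31, 0 and 15 UMIs (5.08 and 2.2 times), and the β chain gene BLA-DQB had 24, 0 and 23 (2.46 and 2.35 times), though reads of this gene family may be split between near-identical copies. With 12974 UMIs in the 9 members of subcutaneous 2, a level of up to 231 CPM would pass unseen there. CTSS, the protease that trims the invariant chain, had 11, 4 and 15 UMIs (2.63, 15.2 and 4.47 times), and with CD83 made 4 of 6 genes of this list. The class I genes BOLA and B2M were close to the other nuclei, at 1.25 and 0.742 times in subcutaneous 1 and 0.661 and 0.718 times in intramuscular 1. BOLA-DMA and BOLA-DMB, whose products help load peptide on class II, had 3, 2 and 2 and 2, 4 and 2 UMIs, so that they were seen in all 3 libraries. CIITA, the switch factor of class II genes, had no UMI.

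Of 17 lipid-associated and lysosomal genes, 3 were among the 66. GRN, progranulin, had 30, 22 and 21 UMIs (5.61, 36.4 and 2.17 times), and CTSB, a lysosomal protease, had 31, 25 and 14 (5.66, 26.6 and 2.59 times); the third was TYROBP. The lipid carriers FABP4 and FABP5 were near the level of the other nuclei in animal 1, FABP4 with 130, 23 and 486 UMIs at 1.03, 13.2 and 0.824 times. TREM2 had 5, 1 and 0 UMIs, the 5 in 1 nucleus. GPNMB had 0, 12 and 1. SPP1, osteopontin, was seen in 9 nuclei (6, 3 and 0), all of which had MSR1, 6 had LIPA and 1 had STAB1; these nuclei, chosen after their values were seen, had a median of 2188 UMIs, beside 817 in the other 64.

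The members varied in which macrophage genes they carried. STAB1 was seen in 26 nuclei (16, 2 and 8), of which 21 had MRC1, 21 had F13A1 and 3 had CD68. Of the 9 nuclei with SPP1, 3 had MRC1, 5 had F13A1, 7 had CD68, 7 had TYROBP and 3 had GPNMB, and 1 had STAB1, beside 26 of all 73 members. CD5L was seen in 13 nuclei, 11 of which had a C1q chain and none of which had SPP1. CD74 was in 33 nuclei (16, 0 and 17). A gene missed in a nucleus of few UMIs may still be expressed there, so these sets are counts of detection. The sets were picked with these counts in view and have no test.

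Of 22 inflammatory signalling genes in the files, 14 were detected in the members and 8 were not. TNF, IL1B, IL6, IL10, IL18, TLR7, IL1R2 and CASP1 had 0 UMIs among the 103274 of all members, which allows up to 29.0 CPM. NFKBIA, the inhibitor of NF-κB, had 27, 7 and 20 UMIs (2.66, 5.54 and 2.61 times) and was 1 of the 2 genes of that list with 20 UMIs. The other, PTGS2, the inducible cyclooxygenase, had 0, 0 and 21 UMIs, at 1.19 times the other nuclei of intramuscular 1. None of the 3 chemokine genes with 20 UMIs, CCL2, CXCL3 and CCL14, was among the 66. CCL2, which draws monocytes, had 18, 0 and 66 UMIs at 1.38 and 1.02 times the other nuclei of animal 1. CCR1, a receptor for inflammatory chemokines, had 13, 1 and 4 UMIs, below the minimum of 20, at 97.9, 103 and 66.3 times. CCR2, the receptor of recruited monocytes, had none.

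Fc receptors, iron genes and transcription factors gave few more. Of 2 Fc receptor genes with 20 UMIs, only FCGR2A, a receptor for IgG, was among the 66, with 2, 1 and 23 UMIs (12.1, 61.6 and 3.5 times). Of 4 iron and haem genes only SLC11A1 was among them, and the ferritin chain FTH1 had 75, 39 and 77 UMIs (2.08, 1.53 and 1.38 times). Of 7 myeloid transcription factors only RBPJ, through which Notch acts, was among them, with 15, 11 and 14 UMIs (2.69, 12.7 and 2.69 times). SPI1, the master factor of myeloid cells, had 6, 0 and 4 UMIs at 45.2 and 39.8 times, below the minimum of 20. KLF6, CEBPD and NR4A1 were at 0.436 to 0.875 times in subcutaneous 1 and 1.14 to 1.18 times in intramuscular 1. None of 2 cytokine receptors (GHR and IL6R) and none of 3 growth signals (CSF1, CCL2 and VCAM1) was among the 66. Genes of the cell cycle had 15, 2 and 17 UMIs in all, in 3, 2 and 5 nuclei, MKI67 with 1, 0 and 4.

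The 5 lowest genes included matrix proteins of fibroblasts. CCN3, a matricellular protein, had 2, 0 and 0 UMIs and was at least 4.08-fold below the other nuclei in the libraries that define the list. GFPT2, an enzyme of the hexosamine pathway, had 0, 0 and 5 UMIs (at least 3.11-fold below). TNXB, a matrix glycoprotein, had 6, 0 and 7 UMIs (2.7-fold), CAMK2D had 3, 1 and 1, and MFAP5, a microfibril protein, had 2, 0 and 2. The rule excludes PDGFRA, a gene of fibroblasts, from the members.

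RNA of other cell types was found in the members of each library. Muscle contractile genes took 2.59%, 12.7% and 0.211% of members' UMIs, beside 6.21%, 25.0% and 0.187% in the other nuclei. They were seen in 30 of 30, 9 of 9 and 20 of 34 members. Adipocyte genes took 0.841%, 0.27% and 2.07%, beside 0.85%, 0.0557% and 2.64%. Progenitor and fibroblast genes took 0.515%, 0.0617% and 0.818%, beside 1.16%, 0.139% and 0.936%, and blood endothelial genes 0.0898%, 0.0385% and 0.0784%, beside 0.231%, 0.059% and 0.143%. None of 10 adipocyte genes and none of 17 muscle genes with 20 UMIs was among the 66. Of the 17, 7 counted as 2-fold or more below the other nuclei in both. A 0 in members always counted so, and the other nuclei of intramuscular 1 had little RNA of most of them (TNNC2 at 1.5 CPM). Summed in that library, the list was slightly higher in members, and nothing is read from the 7. Whether the UMIs of other cell types came from free RNA or from nuclei caught together was not tested.

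The most abundant genes of these lists followed the library. FABP4, the fatty acid carrier of adipocytes, and SCD, the desaturase that makes monounsaturated fat, had 130, 23 and 486 and 32, 2 and 195 UMIs in members, SCD at 0.951, 4.22 and 0.63 times the other nuclei. COL3A1, a fibrillar collagen, had 91, 1 and 281 UMIs (0.476, 0.231 and 0.899 times), and DCN, decorin, had 17, 0 and 40. NEB, the giant protein of muscle thin filaments, had 145, 174 and 1 UMIs and TNNC2, fast troponin C, had 47, 228 and 0. EGFL7 and CLDN5, genes of blood vessels, had 14, 0 and 14 and 5, 0 and 10. In animal 1, none of FABP4, SCD and COL3A1 was above the other nuclei by more than 1.03 times.

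Genes of other blood cells had few UMIs, though some of their lists were above the other nuclei. Of 14 T and NK cell genes 8 were at 0, CD3D and CD3G among them. The list had 7, 1 and 4 UMIs, at 3.46, 12.3 and 1.51 times the other nuclei. Its gene NKG7 had 3, 1 and 2 UMIs (30.1, at least 103 and 7.11 times), and CD3E had 2, 0 and 0 (8.61 times in subcutaneous 1). Of 9 B and plasma cell genes 6 were at 0, of 6 mast cell genes 4, of 9 neutrophil genes 6, and of 10 dendritic cell genes 8, including FLT3, CLEC9A and XCR1. The dendritic list had 4, 0 and 3 UMIs, at 13.4 and 8.29 times the other nuclei of animal 1. Its genes BATF3 and CD1B had 1, 0 and 3 (10.0 and 49.8 times) and 3, 0 and 0 UMIs (30.1 times). The B and plasma cell list was at 0.519, 0 and 0.849 times, the mast cell list at 0.476, 2.78 and 3.02, and the neutrophil list at 0, 44.0 and 1.13. These ratios rest on few UMIs, and whether some members were other blood cells was not tested. All 4 erythroid genes were at 0. The monocyte list had 14, 9 and 23 UMIs (1.27, 21.5 and 1.01 times). In it, VCAN, a proteoglycan of monocytes and fibroblasts, had 1, 0 and 10 and CCR2 had 0. LYZ, which is also among the outside macrophage markers, had 3, 4 and 2 (2.74, 123 and 1.12 times). Of 6 satellite cell genes 4 were at 0, PAX7 and MYF5 among them, and of 6 Schwann cell genes 4 were at 0.

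**Figure D5:**
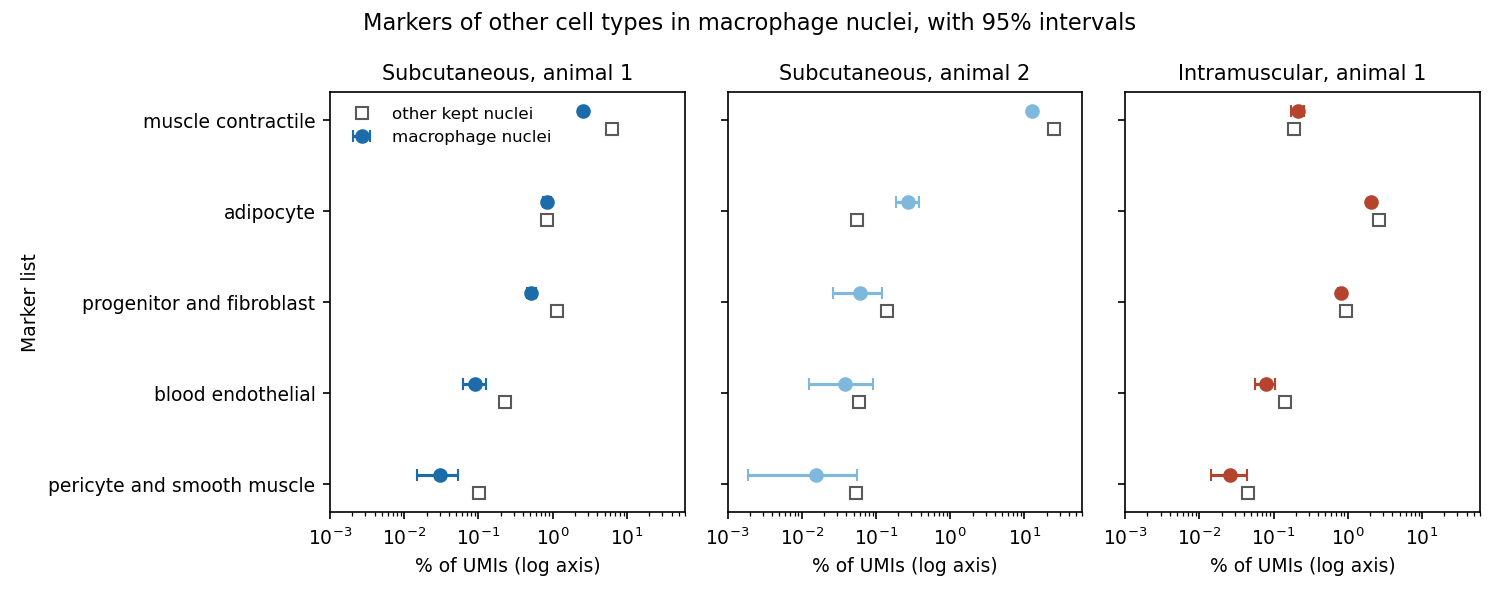
Percent of UMIs (log axis) from marker lists of 5 other cell types in macrophage nuclei (filled circles, exact 95% intervals) and in the other kept nuclei of the same library (open squares), 1 panel per library. Muscle genes are highest in subcutaneous 2, at 12.7% and 25.0%, and adipocyte genes in intramuscular 1, at 2.07% and 2.64%.

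The depots were compared first within animal 1, which gave 30 and 34 members, 1 library against 1 and therefore without a test. Of 896 genes with at least 20 UMIs in these members, 66 (7.37%) were 4-fold or more higher in intramuscular 1 and 44 (4.91%) were 4-fold or more lower, counts under 3 being set to 3. Of the 66 higher genes 51, and of the 44 lower ones 36, also differed 2-fold or more the same way between the other nuclei of the 2 libraries. How many of all 896 genes differed 2-fold between those nuclei was not counted, so nothing is read from these shares. Leaving out the nucleus with most UMIs of each gene left 27 higher and 28 lower. Of the 110 genes, 6 were among the 66 that were high in macrophage nuclei (6.25% of all 1056 genes were), a share near that background: CYBB, LCP1, LGMN, CD5L and ENSBTAG00000010155, which were lower in intramuscular 1, and FCGR2A, which was higher.

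Several macrophage and lysosomal genes were 4-fold or more lower in the members of intramuscular 1. CYBB had 23 UMIs in subcutaneous 1 and 1 in intramuscular 1, a ratio of 33.5 (counting interval 5.45 to 1380). LIPA, lysosomal acid lipase, whose counts may include overlapping IFIT genes, had 18 and 2 UMIs, a ratio of 13.1 (3.14 to 117). CTSZ, a lysosomal protease, had 26 and 5 UMIs, a ratio of 7.58 (2.87 to 25.3). In the other nuclei the same ratios were 2.63 for CYBB, 1.32 for LIPA and 1.14 for CTSZ. These are single libraries with counting intervals, and whether the members differed more than the other nuclei was asked by the interaction test below, which called no gene. SPP1 had 57 and 0 UMIs, which is at least 27.7-fold lower. LGALS3, PSAP, LCP1 and LGMN had 25 and 7, 32 and 10, 19 and 3, and 16 and 4 UMIs. Of 15 lipid-associated and lysosomal genes 5 were 4-fold or more lower and 1, APOE with 3 and 26 UMIs, was higher. Their median log2 ratio was -1.61, beside -0.08 in the other nuclei and 0.04 over all 896 genes in macrophage nuclei. The minimum of 20 UMIs was summed over the members of both libraries, so a scarce gene could pass only through the library where it was high. The count and the medians are given as a description. The rule genes set the membership, and nothing is read from their levels between depots.

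FOSB, JUN and KLF6 were among the genes higher in intramuscular 1, in members and in other nuclei. FOSB, a subunit of the AP-1 factor, had 4 and 176 UMIs (30.2-fold, and 12.2-fold in the other nuclei). JUN had 57 and 352 UMIs (4.23-fold, and 3.05-fold) and KLF6 had 47 and 314 (4.58-fold, and 3.15-fold). NR4A2, whose counts may include the overlapping GPD2, had 2 and 21 UMIs, while its level in the other nuclei was 156 and 73.2 CPM, lower in intramuscular 1. FCGR2A had 2 and 23 UMIs, a ratio of 7.88 (counting interval 1.95 to 69.0), beside 27.1 in the other nuclei.

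With subcutaneous 2 added, edgeR's quasi-likelihood test of 2 subcutaneous against 1 intramuscular library found 36 of 1121 genes (3.21%) at a Benjamini-Hochberg adjusted p under 0.05, 8 higher and 28 lower in intramuscular 1. With 1 intramuscular library, its spread was taken from the pair of subcutaneous libraries. The other nuclei differed the same way for nearly all of these genes, while the share over all 1121 genes was not counted. All 8 higher genes were also higher, and 27 of the 28 lower genes also lower, in the other nuclei of intramuscular 1 than in the mean of the subcutaneous libraries, and all 36 went the same way within animal 1. Of the 36 genes, 0 were among the 66 high in macrophage nuclei, beside 6.25% of the 1056 genes, and nothing is read from so small a number. They included 5 of 19 muscle genes tested, 1 of 5 chemokine genes (CXCL3), 1 of 3 growth signals (CSF1) and 1 of 3 complement genes (ITGB2). Without the top 5% of nuclei by UMIs, edgeR called 0 genes (65 at an unadjusted p under 0.05), and with at least 3 markers per nucleus it also called 0 (53 at an unadjusted p under 0.05). DESeq2's Wald test called 5, and edgeR without a filter on low counts 0, with 249 at an unadjusted p under 0.05.

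CSF1, the growth factor of macrophages, had 0, 0 and 30 UMIs in 7 nuclei (at least 2.42-fold higher, edgeR adjusted p = 0.0451), at 560 CPM beside 671 CPM in the other nuclei of intramuscular 1. SEMA4A, a semaphorin, and GRO1, a neutrophil-attracting chemokine whose counts may be shared with related chemokines such as CXCL3, also had 0, 0 and 30 UMIs, with the same bound and adjusted p.

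FOSB had 4, 1 and 176 UMIs, a log2 fold change of 5.06 (SE 1.55, edgeR adjusted p = 0.0394). CXCL3 had 4, 0 and 98 UMIs, a log2 fold change of 4.66 (SE 1.34, edgeR adjusted p = 0.0277), and a level of 1829 CPM beside 1800 CPM in the other nuclei. CCN1, a matricellular protein, had 1, 0 and 103 UMIs, a pooled ratio of 95.6 (counting interval 16.8 to 3810, edgeR adjusted p = 0.0187). TRIB1, a pseudokinase that steers degradation of C/EBP factors, had 2, 0 and 49 UMIs, a pooled ratio of 22.7 (counting interval 5.97 to 193, edgeR adjusted p = 0.0268). Each of these 7 genes was at 0 to 4 UMIs in each subcutaneous library's members. None of them was called by DESeq2's Wald test, whose calls were all lower in intramuscular 1.

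Macrophage markers outside the rule did not pass this test. STAB1 had a log2 fold change of -0.93 (SE 1.25, edgeR adjusted p = 0.992). CD163 had 0.72 (SE 1.38, edgeR adjusted p = 0.992) and LYVE1 had 0.21 (SE 1.47, edgeR adjusted p = 0.993). The SEs of more than 1 leave room for differences of several fold in either direction. Macrophage and lysosomal genes that were 4-fold or more lower within animal 1 did not pass either, with edgeR adjusted p-values of 0.139 for SPP1, 0.142 for LIPA, 0.165 for CYBB and 0.443 for CTSZ. FCGR2A, on the higher side, had 2.76 (SE 1.56, edgeR adjusted p = 0.589). The median log2 fold change was -1.76 over 7 outside markers and -1.72 over 17 lipid-associated and lysosomal genes, beside -0.05 over all 1121 genes. A scarce gene could enter this fit through the library where it was high, so these medians are a description.

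The 28 lower genes all had 0 UMIs in the members of intramuscular 1, and included 5 of the muscle list and others known from skeletal muscle, such as ACTN3, RYR1 and MYOT. CKM, the muscle creatine kinase, had 21, 55 and 0 UMIs, at least 10.2-fold lower (edgeR adjusted p = 0.0465). MB, myoglobin, had 64, 26 and 0 UMIs, at least 31.1-fold lower (edgeR adjusted p = 0.0298), and MYL2, a myosin light chain, 94, 22 and 0, at least 30.3-fold lower (edgeR adjusted p = 0.0358). ENO3, MYBPC1, CMYA5, MYBPC2 and SLN were likewise lower, with bounds from 1.94-fold for SLN to 30.1-fold for MYBPC1. These genes were at 477 to 9800 CPM in the other nuclei of the subcutaneous libraries and at no more than 30 CPM in those of intramuscular 1. Muscle genes as a list made up 2.59%, 12.7% and 0.211% of members' UMIs, and the part of this RNA in the calls was not tested.

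ITGB2, named here after its values were seen, was the 1 lower gene whose level in the other nuclei of intramuscular 1 was not below the mean of the subcutaneous libraries. It had 15, 11 and 0 UMIs in 9, 3 and 0 members, at 408, 848 and 0 CPM, at least 7.29-fold lower (edgeR adjusted p = 0.0187). Its level in the other nuclei was 11.7, 1.75 and 7.88 CPM, so that within animal 1 the other nuclei were also lower in intramuscular 1. It did not pass the filter on low counts of the interaction test below, and without that filter edgeR's interaction test called 0 of 16570 genes (42 at an unadjusted p under 0.05).

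Whether a depot difference was itself different in macrophage and other nuclei was tested as an interaction in edgeR. None of 8082 genes (0%) passed, with 50 at an unadjusted p under 0.05, and DESeq2's size factors in the same test also gave 0, with 62. The smallest p-values went to SLC8A3, a sodium and calcium exchanger (6, 0 and 7 UMIs), the unnamed ENSBTAG00000054051 (15, 18 and 2) and RRP12, a factor of ribosome export (0, 1 and 17), on the side higher in intramuscular macrophage nuclei. On the other side they went to GPNMB (0, 12 and 1 UMIs, log2 -5.55, SE 1.87), MMP19, a matrix metalloproteinase (13, 20 and 1, log2 -5.97, SE 2.04), and BBLN (11, 2 and 0), each with an edgeR adjusted p of 1. The sums rest on 30, 9 and 34 nuclei, and a p that misses the threshold does not show that the depot differences were alike in both kinds of nuclei.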

How the data were processed

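Single-nucleus RNA was measured in 4 libraries. The authors deposited unnormalised UMI counts as a sparse matrix for each library, over 21861 features, of which 4251 have no name. Counting used Cell Ranger 6.0.1 per the file headers and the build ARS-UCD1.2 per the submitters' processing notes; the annotation release and whether introns were counted are unknown (not given in the sources used here). A RefSeq gene table of another assembly was used for overlaps between neighbouring genes alone (211 of 215 genes matched), and no coordinates or sequences are given.

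The members, gene lists and tests were chosen with earlier results of these data known. The rule was applied to every barcode, and no doublet caller was run. UMIs were summed per library over macrophage nuclei and over the other kept nuclei, since nuclei are not replicates. Ratios of 2 or more were counted in the 2 libraries with at least 10 members, with a 0 in the other nuclei set to 3 counts. For these ratios a gene needed at least 20 UMIs summed over the members of all 3 libraries. The intended minimum of 10 members left 1 library per depot, so edgeR 4.0.16 in R 4.3.3 (filterByExpr, TMM, quasi-likelihood F test) was fitted on the 3 libraries with any member. The standard error (SE) is the absolute log2 fold change over the square root of F. A fold against a library at 0 UMIs is a lower bound, taken as the level in the lower of the other depot's libraries divided by the level of 3 counts (the higher one where 2 libraries were at 0). Fits were tested on simulated data, where the interaction fit missed most of the changed genes and recovered far fewer than the depot fit. The pairing of libraries comes from the labels, which give the same animal the same number; samples of a depot are separate animals.

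The rule for naming genes took the 9 markers and 3 excluded genes, the 20 named genes with the highest lowest-library ratio, up to 8 depot genes per direction by fold (else the 3 smallest p), the 4 members with most UMIs of each list of macrophage function and 2 of each list of other cell types, and the 5 lowest genes with at least 200 UMIs in the other nuclei. Others named for their list were chosen after their values were seen. Alternatives were other filters, thinning, DESeq2 1.42.0 and leaving out libraries or single nuclei. Ratio intervals are exact conditional 95% intervals of 2 counts and cover counting error only. Some results that the naming rule would give are not reported here.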

Additional observations from a re-analysis of the deposited data

Results flagged for a closer look

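Barcodes with fewer than 200 detected genes took no part in any comparison. In subcutaneous 2 there were 1027 of them, and they held 5 UMIs of the 9 macrophage markers, in 5 barcodes with 1 marker each and none with 2, which is above the 3 counts that a 0 would allow. The share of such barcodes with exactly 1 marker was 0.487%, beside 1.34% of the kept nuclei of the same library. Intramuscular 2 had 17 such barcodes with 2 marker UMIs.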

How the results depend on the processing

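The share difference of -0.819 points kept its sign in 9 of 11 alternatives, among them the replicate block by animal (-0.819, exact permutation p = 0.5), but leaving out libraries gave -2.45 to 0.81, with 0.81 without subcutaneous 1 and 0.137 without intramuscular 2. The 66 of 1056 genes (6.25%) high in macrophage nuclei became 34 of 1056 (3.22%) at a fold of 4 and 12 of 285 (4.21%) with at least 50 UMIs. They became 16 of 178 (8.99%) after thinning to 400 UMIs and 112 of 3016 (3.71%) without the exclusion genes. When the ratio was asked of 1 library alone, 98 to 160 genes passed (9.28% to 15.2%). The number of genes tested changed with some settings, so count and share did not always move the same way. The 110 genes that differed 4-fold in animal 1 became 47 with at least 3 markers, 208 without exclusion, 11 after thinning and 55 without the top nucleus of each gene. The 36 genes of edgeR's depot test became 0 with at least 3 markers, after thinning (88 genes tested, 1 at an unadjusted p under 0.05), without the top 5% of nuclei by UMIs, or without a filter on low counts; 76 without exclusion; and 5 with DESeq2's Wald test. DESeq2 size factors gave 49 (11 higher) and library totals without TMM 24 (3 higher). The interaction test gave 0 in all 8 alternatives. Asking 1 library alone and dropping top nuclei were chosen after seeing the data. Leaving out a library, or a replicate block, could not be run for edgeR's depot test or, by library, for its interaction test. Either change would use up the last residual degree of freedom of the 3 libraries, and intramuscular 2 had no members. The cause of these changes was not tested. Depth limits every value, with 9 members in subcutaneous 2 and few UMIs per gene.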
